A study of Mus musculus with 12 samples.

Results

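The comparison asks how gene expression in lung differed between mice of the substrain C57BL/6NCr at 6 and 12 months of age, the earliest step of a study of 4 ages. Its members are the 6 libraries whose titles carry the ages 6M and 12M (months are written M), of 12 libraries in all, the others being of 20M and 30M. Each age had 3 libraries of poly-A RNA from lung, named by age and the number in the title: 6M_201, 6M_202 and 6M_203 against 12M_206, 12M_207 and 12M_208. The labels give no mutation, treatment or sex for either age and do not state whether the numbers stand for different animals, so errors and p-values measure the spread between libraries. A level is given in CPM, counts scaled to 1000000 per library with TMM scaling, and the values of a gene are listed in the order of the libraries above.

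The lung joins a thin gas-exchange surface of alveolar type 1 and type 2 epithelial cells to a dense capillary bed, with a ciliated and secretory airway lining above it. Its resident immune cells include alveolar macrophages in the air spaces, interstitial macrophages in the tissue, and lymphocytes, some of which gather in lymphoid aggregates that chemokines organise and that plasma cells join. In ageing mice lungs are known to collect such aggregates together with immunoglobulin and complement transcripts, and a comparison of middle age with young adulthood looks at the beginning of that process.

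At 12M against 6M no gene of 18407 tested passed an adjusted p of 0.05 in edgeR's quasi-likelihood test in either direction (0%). At an unadjusted p under 0.05 there were 359 genes higher at 12M (1.95%) and 303 lower (1.65%), together 662 (3.6%), where 920.4 would be expected if no gene differed. In 1160 genes all 3 libraries of 12M lay above all 3 of 6M (6.3% of those tested), and in 1070 all lay below (5.81%), together 2230 (12.1%). These shares are the background for the list counts given below. DESeq2 called 9 genes higher and 0 lower, and limma voom with library quality weights called 0, with 603 higher and 507 lower at an unadjusted p under 0.05. The 9 genes of DESeq2, which are given by name because they are so few, were the immunoglobulin genes Igkc, Jchain, Igkv3-2, Igkv4-72 and Igkv6-20, and Arrdc3, Dnase1l3, Ubd and C130026I21Rik.

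Library 12M_208 stood apart from the other 5. Totals were alike, from 12229293 to 13303862 counts, but 12M_208 correlated with the others at r = 0.9639 to 0.9688 across genes and the others with one another at 0.9825 to 0.9879. Of 16801 genes with a mean of at least 1 CPM, 1.21% lay more than 2-fold from the 6M mean in 12M_206 and 1.3% in 12M_207, against 7.22% in 12M_208, where 907 were lower and 306 higher. Its levels also followed the GC content of genes (Spearman rho 0.23 across genes, against -0.0868 to 0.0512 in the other 5). Such a trend was not particular to 12M_208 in the series. Among the later libraries, which enter the same fit, rho was 0.366 in 20M_221, 0.471 in 20M_222 and 0.33 in 30M_220. In the rest of them it was -0.00231 to 0.0507. Mitochondrially encoded genes took 3.48% of the counts of 12M_208, against 2.35% to 2.56% in the other 5 libraries of 6M and 12M. The 25 genes of splicing and RNA binding had a median of -1.11 in 12M_208, as log2 level minus the 6M mean, against 0.02 and 0.01 in 12M_206 and 12M_207. The 58 cytosolic ribosomal protein genes had a median of 0.40 against 0.06 and 0.15. Among the other 5 libraries, pairs of different ages were as close as pairs of 1 age: 6M_202 correlated with 12M_207 at r = 0.9879 and with 6M_203 at 0.9873, 6M_201 with 12M_206 at 0.9872, and 12M_206 with 12M_207 at 0.9826. For each gene list the number of members at an unadjusted p under 0.05 was also counted in a fit without 12M_208. That fit leaves 2 libraries at 12M, and its count is given below for some of the lists. Why 12M_208 stood apart was not tested.

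All 6 libraries carried lung transcripts at high levels, including Sftpc, the surfactant protein of alveolar type 2 cells, at 19000 to 23830 CPM, Ager of type 1 cells at 2442 to 3125 CPM and Scgb1a1 of airway secretory cells at 33340 to 59220 CPM. Cardiac muscle transcripts were also present, as Myh6, a cardiac myosin heavy chain, stood at 177 to 285 CPM at 6M and 176 to 373 CPM at 12M. Skeletal muscle Myh4 had no count in any of the 6.

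The precision of this comparison sets what a gene could have shown. The 95% interval of the fold change could be computed for 18398 genes and lay wholly within 2-fold in 12814 of them (69.65%) and within 1.5-fold in 7189 (39.07%). Precision followed the level. Between 10 and 100 CPM 92.42% of 9076 genes, and at 100 CPM or more 93.98% of 2142 genes, had an interval within 2-fold. Of 5583 genes at 1 to 10 CPM 43.08% did so, and of 1597 genes under 1 CPM 0.5009%. A single gene standing alone needs a p of 2.72e-06 to be called among 18407. At the spread estimated over all 12 libraries that p corresponds to a median change of 3.5-fold over all genes. The change was 2.52-fold at 100 CPM or more and 2.67-fold at 10 to 100 CPM. At 1 to 10 CPM it was 7.45-fold, and under 1 CPM 33.5-fold. The median standard error was 0.23 in this fit and 0.189 in a fit to the 6M and 12M libraries alone. Were 100 genes to pass together, the median change needed would be 2.2-fold. A gene with no count in the 3 libraries of an age can stand at up to 0.0797 CPM at 6M and 0.0775 CPM at 12M, a limit that covers counting error only.

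**Figure D1:**
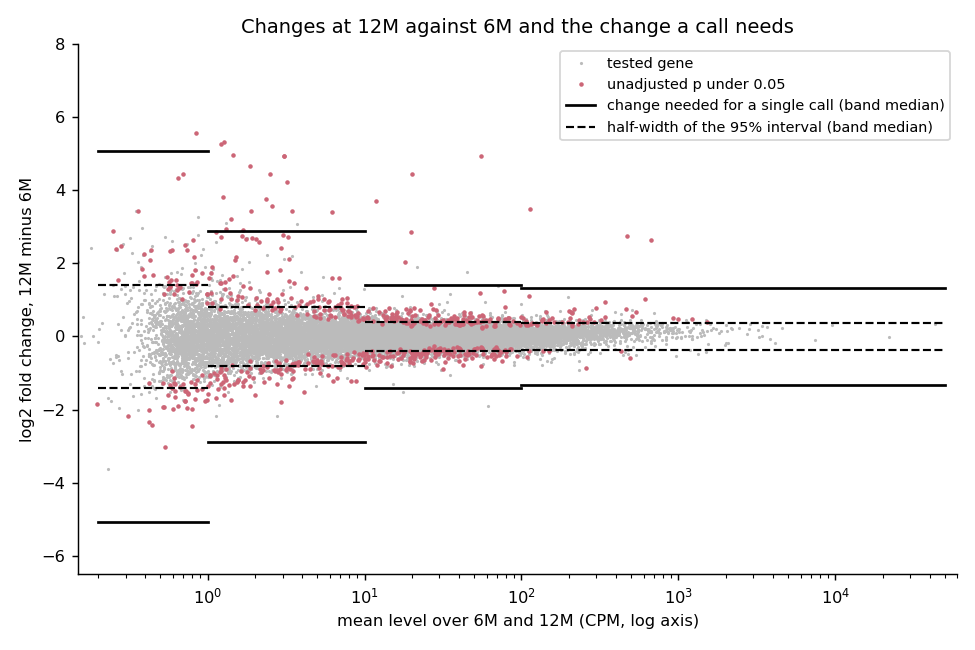
Each point is 1 tested gene, with its mean level over 6M and 12M in CPM (log axis) across and its log2 fold change at 12M against 6M upward. Red points have an unadjusted p under 0.05, dashed lines are the median half-width of the 95% interval and solid lines the median change a single call needs, in 4 bands of level. The solid lines lie beyond nearly all points, at 2.52-fold for genes of 100 CPM or more.

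Of the genes beyond the solid lines for their band of level, 30 were higher at 12M and 2 lower, and 25 of the 30 were immunoglobulin genes, Jchain counted with them. Immunoglobulins are the antibodies that plasma cells secrete. Jchain, which joins the units of IgM and IgA, stood at 16.9, 20.5 and 18.1 CPM at 6M and 196, 47.1 and 381 CPM at 12M. All 12M libraries were above all 6M libraries, but the 12M values spread 8.09-fold, with 12M_207 nearest to 6M. Its log2 fold change was 3.49 ± 0.70 (SE), with an unadjusted p of 0.00102 and an adjusted p of 0.988, and without 12M_208 it was 2.71. Igkc, the constant region of the kappa light chain, stood at 145, 118 and 104 CPM against 668, 188 and 1613 CPM, a log2 fold change of 2.75 ± 0.64. The mu heavy chain gene Ighm gave 209, 216.1 and 134 CPM against 900, 223 and 2352 CPM (2.64 ± 0.67). In both genes 12M_207 was the 12M library nearest to 6M. Igha, the heavy chain of IgA, stood at 12.2, 22.04 and 12.7 CPM against 38.6, 31.8 and 48.1 CPM, a log2 fold change of 1.34 ± 0.31 and an unadjusted p of 0.00114. Without 12M_208 the log2 fold changes of Igkc, Ighm and Igha were 1.802, 1.59 and 1.17.

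The variable segments, summed as groups, had the same order of the 12M libraries, with 12M_207 lowest and 12M_208 highest. Of 44 heavy-chain segments tested, 43 had a positive log2 fold change, 12 had an unadjusted p under 0.05 with a higher level at 12M and 0 with a lower one, and 8 did not overlap. Of 62 kappa segments these counts were 61, 24, 0 and 17. Over all tested genes 52.9% had a positive log2 fold change. An unadjusted p under 0.05 with a higher level was found in 1.95%, and 6.3% lay without overlap and higher. The summed level of all kappa segments was 47.6, 49.3 and 28.6 CPM at 6M and 216.04, 46.5 and 535 CPM at 12M, so that 12M_207 lay within the 6M range. Over the later ages it was 165 to 655 CPM at 20M and 254 to 482 CPM at 30M. Segments share sequence, and reads can be split between them, so single segments are uncertain.

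Other heavy chains were high in 12M_206, in 12M_208 or in both, and not in 12M_207. Ighg1, the heavy chain of IgG1, stood at 1.04, 0.41 and 3.80 CPM against 37.9, 1.26 and 76.4 CPM (log2 fold change 4.45 ± 1.41, unadjusted p 0.0124), and 12M_207 lay inside the 6M range. Ighe, the heavy chain of IgE, was chosen after its values were seen. It had 0 counts in the 3 libraries of 6M and 36 at 12M, at least 12.3-fold higher against a floor of 3 counts over the age, and nearly all of them were in 12M_208 (2.96 CPM, against 0.08 and 0 CPM in 12M_206 and 12M_207). On the plasma cell list, 6 of 15 genes had an unadjusted p under 0.05 with a higher level and 0 with a lower one. On it 3 genes lay without overlap and higher, where 6.3% of all tested genes did so. The median log2 fold change of the list was 1.13 against 0.02 over all tested genes, but 0.36 with limma voom and 0.95 without 12M_208, where 4 of the 6 genes, Jchain, Igkc, Igha and Ighg1, were still at an unadjusted p under 0.05. Members that are not immunoglobulins, Jchain aside, were at an unadjusted p of 0.112 or more. Mzb1, a chaperone of antibody assembly, stood at 0.60, 1.49 and 1.37 CPM against 0.90, 0.76 and 0.42 CPM, and Derl3, a protein of endoplasmic reticulum quality control, at 1.64, 2.39 and 2.02 CPM against 2.40, 1.68 and 6.76 CPM, both with overlap. Of 15 B cell markers, 2 did not overlap, both higher at 12M, Ighm and Ebf1, where 6.3% of all tested genes did so. Ebf1, a transcription factor of B cell identity that other cells also express, stood at 15.7, 12.3 and 10.8 CPM against 18.3, 16.7 and 18.4 CPM, a log2 fold change of 0.46 ± 0.25 with an unadjusted p of 0.0943. The others overlapped, such as Cd79a, a chain of the B cell receptor, at 52.2, 32.4 and 24.2 CPM against 58.5, 35.5 and 61.9 CPM, and Ms4a1 at 50.5, 30.8 and 24.3 CPM against 52.8, 20.97 and 41.5 CPM. In whole tissue more cells of a type and more RNA per cell cannot be told apart.

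**Figure D2:**
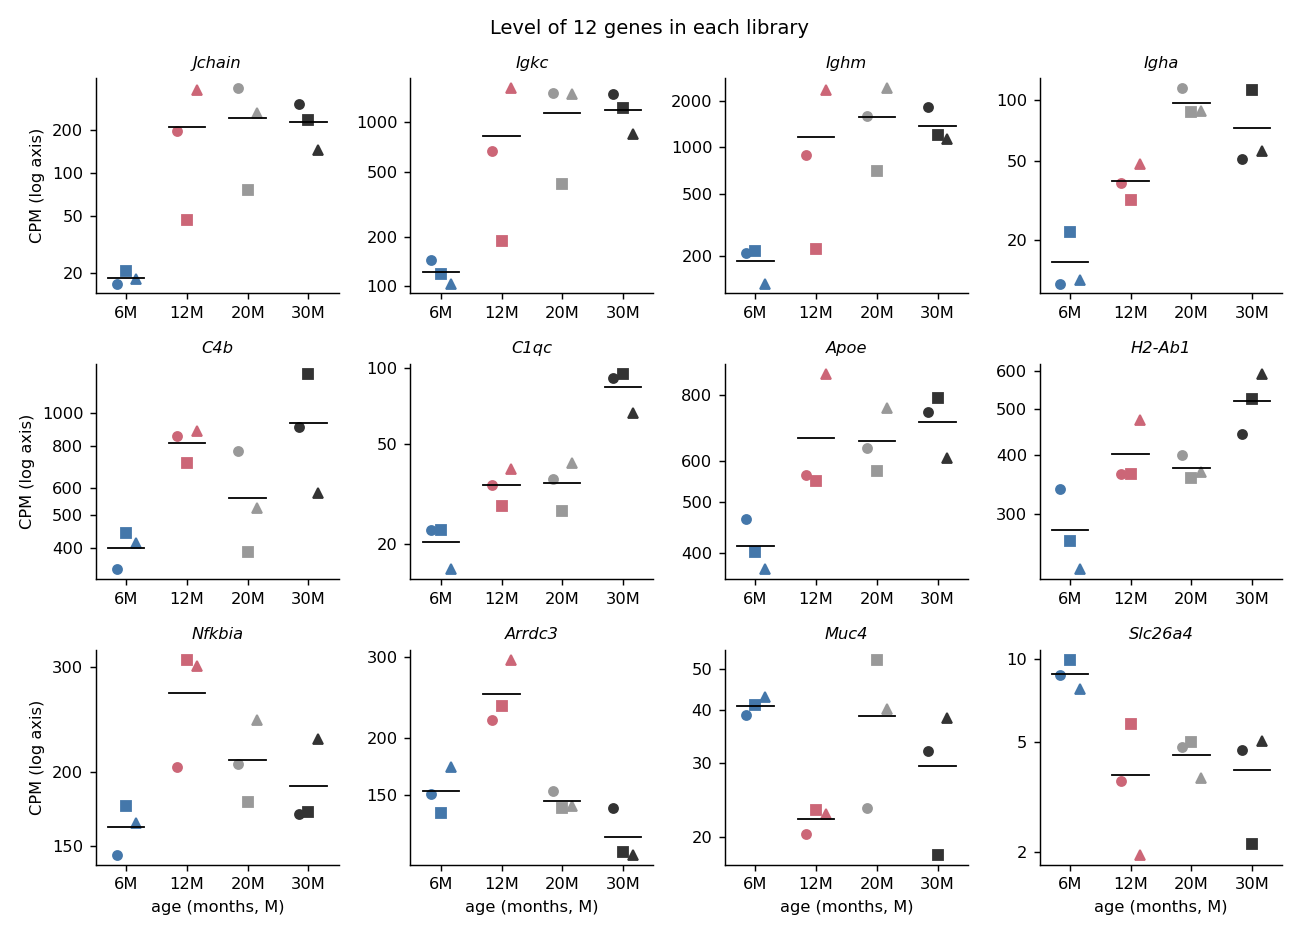
Level of 12 genes in each library, in CPM on log axes, against age in months (M). Points are libraries, with circle, square and triangle in the order of the library numbers within an age, and bars are means of 3 libraries. Jchain, Igkc and Ighm spread widely at 12M with the square (12M_207) lowest, while C4b, Muc4 and Arrdc3 form tight groups at 6M and 12M.

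Chemokines and other genes that organise lymphoid tissue had a list median of 0.49, with 4 of 16 genes at an unadjusted p under 0.05, all higher at 12M, and 1 of the 4, Cxcl9, without 12M_208. Cxcl12, which guides B cells and plasma cells, stood at 119, 111 and 104 CPM against 137, 130 and 259 CPM, without overlap, at a log2 fold change of 0.66 ± 0.26 that was 0.26 without 12M_208. Cxcl9, an interferon-gamma-induced T cell attractant, stood at 0.75, 0.08 and 0.57 CPM against 3.45, 1.18 and 4.56 CPM. At such low counts the limits above are wide. Ccl20, the ligand of CCR6, gave 0.82, 1.403 and 1.05 CPM against 2.78, 2.70 and 5.66 CPM, and Ccl19, a ligand of CCR7, overlapped because 12M_207 was at 0.34 CPM. The log2 fold change of Ccl19 was 2.94 (unadjusted p 0.0172), and 1.46 without 12M_208 (unadjusted p 0.18). Glycam1, a mucin-like ligand of L-selectin made by high endothelial venules, had 0 counts at 6M and 51 at 12M, at least 17.4-fold higher. Its 12M levels were 1.73, 0.34 and 2.03 CPM (unadjusted p 0.00224, adjusted p 0.988). Ubd, an inducible ubiquitin-like modifier, which was chosen after its values were seen, had 0 and 59 counts, at least 20.1-fold higher. Its 12M levels were 1.65, 0.25 and 2.87 CPM (unadjusted p 0.00738, adjusted p 0.988). These bounds, like that of Ighe, put a floor of 3 counts on 6M. They take the summed 12M count as exact and leave out the spread between the 12M libraries, of which 12M_207 was the lowest in both genes. Dnase1l3, a secreted DNase made by some macrophages and dendritic cells, stood at 0.67, 0.08 and 0.16 CPM against 4.51, 0.67 and 5.24 CPM, and here too 12M_207 was close to 6M.

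Complement is a cascade of plasma and local proteins that tags particles for clearance. C4b, which acts early in the classical pathway, stood at 345, 442 and 413 CPM at 6M and 854, 713 and 885 CPM at 12M. The groups were far apart and 12M_207 was high here as well. The log2 fold change was 1.03 ± 0.28, with an unadjusted p of 0.00315 and an adjusted p of 0.988, and it was 0.97 without 12M_208. Reads of C4b can be shared with its near-identical copy C4a, so its count is uncertain in that respect. C1qc, a subunit of the C1q recognition molecule that tissue macrophages make, stood at 22.6, 22.7 and 15.8 CPM against 34.3, 28.3 and 39.9 CPM (0.74 ± 0.21, unadjusted p 0.00357). Of its partners C1qb did not overlap, at 28.7, 29.5 and 25.8 CPM against 33.2, 34.8 and 40.5 CPM, and C1qa overlapped through 12M_207. Cfd, the factor D protease known from fat, went the other way, at 48.6, 57.4 and 35.3 CPM against 13.7, 25.3 and 28.6 CPM (-1.06 ± 0.55). Over the 19 complement genes the median was 0.31, with 8 separate higher and 1 separate lower, against 6.3% and 5.81% of all tested genes. Of the 19, 2 genes, C4b and C1qc, were at an unadjusted p under 0.05 with and without 12M_208.

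Macrophage lists pointed to both directions. The interstitial macrophage list had a median of 0.30 and 2 of 14 genes at an unadjusted p under 0.05, C1qc and Apoe, both of them secreted proteins and both under 0.05 without 12M_208 too. Apoe, the lipid carrier, stood at 464, 402 and 373 CPM against 563, 549 and 877 CPM, without overlap, and its log2 fold change of 0.68 ± 0.20 was 0.43 without 12M_208. Surface markers such as Adgre1 (F4/80) overlapped. The alveolar macrophage list had a median of -0.23, with 3 of 16 genes at an unadjusted p under 0.05, all lower. Chil3, a chitinase-like protein of alveolar macrophages, stood at 211, 414 and 375 CPM against 170, 248 and 131 CPM, Atp6v0d2, a proton pump subunit, at 18.1, 25.6 and 28.1 CPM against 15.1, 20.1 and 9.97 CPM, and both overlapped. Without 12M_208 the median of the list was -0.09 and 0 of the 3 genes were under 0.05. The monocyte list had a median of 0.31, with 2 of 14 genes at an unadjusted p under 0.05, Spn and Treml4, neither of them under 0.05 without 12M_208, and its members overlapped except Fcgr4, an activating Fc receptor, at 5.97, 12.7 and 5.01 CPM against 14.0, 13.5 and 13.3 CPM.

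Antigen presentation genes had fold changes under 2-fold. MHC class I molecules show peptides cut by the immunoproteasome to CD8 T cells, and class II molecules show peptides of engulfed proteins to CD4 T cells. The class I list had a median of 0.31, with 15 of 17 genes above 0, 5 at an unadjusted p under 0.05 and 6 that did not overlap, all higher. Over all tested genes 6.3% lay without overlap and higher. The intervals of all 17 lay within 2-fold. Without 12M_208 the median was 0.25 and 0 of the 5 were under 0.05, with unadjusted p-values of 0.062 for Psmb8, 0.07 for Tap2, 0.0759 for B2m, 0.0998 for H2-T23 and 0.138 for H2-D1. Psmb8, an immunoproteasome subunit, stood at 66.2, 57.4 and 52.7 CPM against 71.6, 79.5 and 97.0 CPM (0.49 ± 0.17, unadjusted p 0.0115). B2m, the light chain shared by class I molecules, gave 914, 825 and 735 CPM against 990, 1148 and 1308 CPM (0.48 ± 0.18). In both genes the groups lay close, with 6M_201 the highest of 6M and 12M_206 the lowest of 12M. The class II list had a median of 0.36 and 6 of 12 genes at an unadjusted p under 0.05, of which H2-Ab1 and H2-DMb1 were under it without 12M_208. H2-Ab1, a class II beta chain, stood at 339, 264 and 230 CPM against 364, 366 and 473 CPM (0.53 ± 0.18, unadjusted p 0.0106), and Cd74, the invariant chain, at 881, 734 and 668 CPM against 924, 1026 and 1306 CPM. H2-Aa and H2-Eb1 overlapped because 6M_201 was high. Single libraries moved the list. Without 6M_201 the class II median was 0.62, and without 6M_203 it was 0.26. The 30 interferon-stimulated genes had a median of 0.18 and none at an unadjusted p under 0.05. A separate list of 17 guanylate-binding protein and immunity-related GTPase genes had a median of 0.27. On it 3 genes had an unadjusted p under 0.05, Irgm2, Gbp2 and Gbp5, all higher. Without 12M_208 its median was 0.47, with 4 genes under 0.05.

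NF-kB is a transcription factor held in the cytoplasm by inhibitors, among them IkB-alpha, whose gene it induces. Nfkbia, that gene, stood at 145, 176 and 164 CPM at 6M and 204, 309 and 302 CPM at 12M. No libraries overlapped, 12M_206 being the lowest of 12M, and the log2 fold change was 0.75 ± 0.19 (unadjusted p 0.00161, adjusted p 0.988). The bases before its start site, at chr12:55492648-55492897 on the minus strand of GRCm38.p6 (RefSeq), are shown because they hold a match to the NF-kB motif, in capitals, 29 bases before the start on the strand opposite to the one printed:
Nfkbia: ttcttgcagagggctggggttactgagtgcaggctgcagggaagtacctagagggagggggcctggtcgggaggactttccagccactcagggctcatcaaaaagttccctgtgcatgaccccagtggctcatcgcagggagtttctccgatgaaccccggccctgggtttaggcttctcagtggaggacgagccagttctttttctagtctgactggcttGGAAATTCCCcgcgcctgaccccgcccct
The choice of this promoter was made after the values were seen, and a match is a description of letters only. The motif, searched on both strands in the 250 bases before each start, was found in 4.46% of 27025 genes with a window. It was found in 2 of the 9 leading higher genes with a window, Nfkbia and Smpdl3b, and in 0 of the 15 leading lower genes. The letters TGACGTCA were found in 1.77% of genes, and among the leading genes in Snrpg and Ttc16. On the list of NF-kB subunits and feedback inhibitors 13 of 15 genes were above 0, with a median of 0.16, and 2 had an unadjusted p under 0.05, Nfkbia and Nfkbie, the first of them without 12M_208 too. Nfkbie, IkB-epsilon, stood at 9.33, 7.10 and 7.11 CPM against 10.4, 10.2 and 11.4 CPM. The subunit genes Nfkb1 and Rela had log2 fold changes of 0.15 and 0.19.

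Among genes with no overlap that are neither predicted genes nor antigen receptor segments, the smallest p was that of Arrdc3, an arrestin-like adaptor that promotes receptor trafficking, at 150, 137 and 172 CPM against 217.96, 235 and 296 CPM. The groups did not overlap, and the log2 fold change was 0.70 ± 0.15 with an unadjusted p of 0.000486 and 0.56 without 12M_208. It stood at 153, 141 and 142 CPM at 20M, within the 6M range. Csrnp1, a nuclear protein induced by several signals, stood at 50.5, 43.1 and 44.8 CPM against 65.0, 127 and 134 CPM. Pmaip1, the pro-apoptotic Noxa, gave 14.0, 19.2 and 17.5 CPM against 22.98, 29.98 and 31.4 CPM. In all of Nfkbia, Csrnp1 and Pmaip1 the order at 12M was the same at the bottom, with 12M_206 lowest. Tnfrsf1b, the second TNF receptor, was tight at 12M, at 44.0, 36.6 and 29.4 CPM against 57.8, 55.3 and 58.6 CPM. Smpdl3b, a membrane phosphodiesterase, stood at 3.73, 3.63 and 2.18 CPM against 6.61, 5.90 and 8.02 CPM. Snrpg, a core protein of spliceosomal particles, gave 15.7, 14.4 and 13.6 CPM against 20.9, 25.2 and 26.7 CPM, and Chrm2, a muscarinic acetylcholine receptor, 16.3, 17.3 and 12.3 CPM against 25.6, 19.5 and 33.3 CPM.

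The smallest p of all genes belonged to C130026I21Rik, a predicted gene annotated as protein-coding and chosen after its values were seen. It stood at 4.702, 2.39 and 2.18 CPM against 11.0, 8.001 and 9.12 CPM, a log2 fold change of 1.59 ± 0.26 with an unadjusted p of 4.34e-05 and an adjusted p of 0.798, the only one under 0.9. Without 6M_201 it passed, at an adjusted p of 0.0276. It belongs to a family with near-identical copies, so its counts are uncertain.

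**Figure D3:**
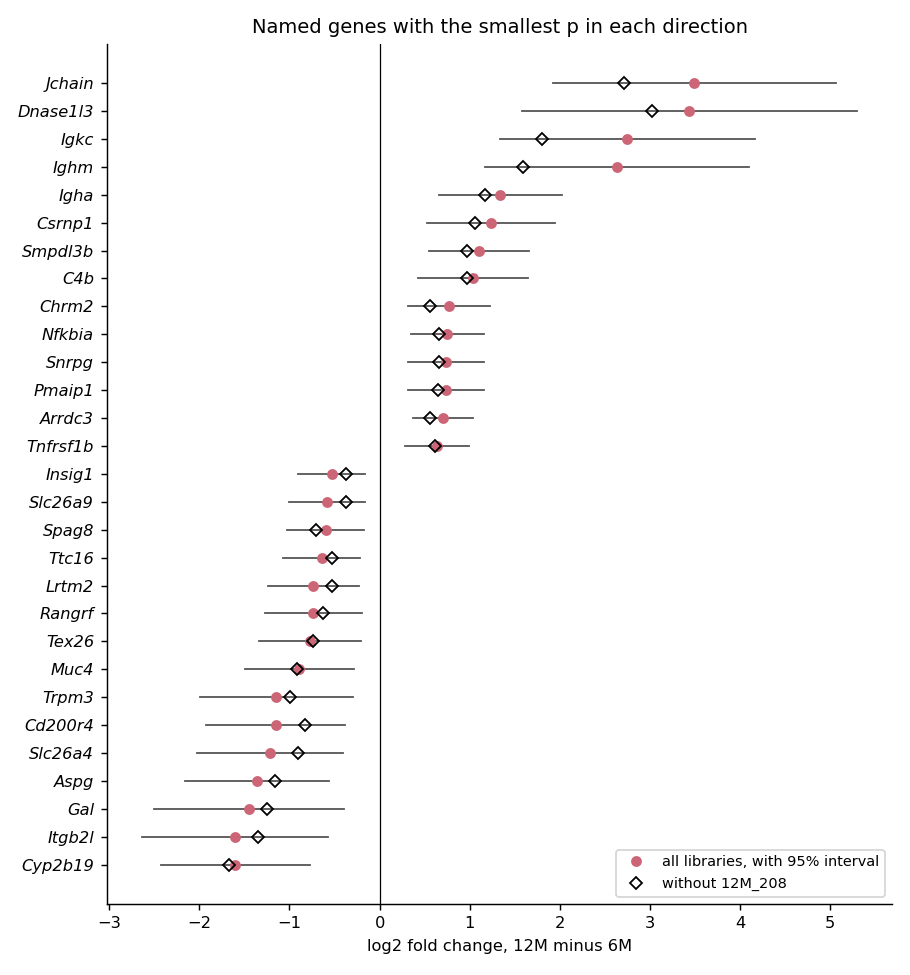
Log2 fold change at 12M against 6M (across) of the leading genes of each direction, with 95% intervals as lines, red circles for the fit with all libraries and open diamonds for the fit without 12M_208. Glycam1, which had no count at 6M and has no interval, is left out. Every diamond lies on the same side of 0 as its circle, from 3.02 for Dnase1l3 to -1.67 for Cyp2b19. The choice of genes without overlap nearly fixed this in advance.

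Leading lower genes had larger p-values than leading higher genes, from an unadjusted p of 0.000963 to 0.0117 among the 15 leading ones, against 0.000486 to 0.00344. Epithelial transport and mucus genes were among them. Muc4, a membrane mucin of the airway lining, stood at 38.8, 41.0 and 42.9 CPM at 6M and 20.3, 23.2 and 22.7 CPM at 12M. Both groups were tight, and the log2 fold change was -0.89 ± 0.28 (unadjusted p 0.00759), with -0.92 without 12M_208. Slc26a4, the anion exchanger pendrin, stood at 8.73, 9.91 and 7.76 CPM against 3.60, 5.81 and 1.94 CPM, and Slc26a9, a chloride transporter of airway and stomach epithelium, at 58.8, 56.4 and 59.7 CPM against 49.8, 40.8 and 26.1 CPM. In these transporters 12M_208 was the lowest library. Cyp2b19, a cytochrome P450 arachidonate epoxygenase, had the smallest p of the lower genes, at 1.64, 1.98 and 2.102 CPM against 0.60, 0.59 and 0.68 CPM (-1.60 ± 0.38). It is one of a family of similar genes, so reads of relatives could weigh in it.

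Insig1, which holds back sterol synthesis when sterols are ample and is itself sterol-regulated, stood at 114, 82.0 and 87.6 CPM against 73.0, 73.7 and 49.5 CPM (-0.53 ± 0.17). On the cholesterol synthesis list 16 of 21 genes were below 0, with a median of -0.12 and 2 at an unadjusted p under 0.05, Insig1 and Fdps, both lower, and Insig1 alone without 12M_208. Fdps, farnesyl diphosphate synthase, stood at 2.16, 1.90 and 2.34 CPM against 0.90, 1.52 and 0.93 CPM. Genes named for their expression in sperm or testis were also among the leading lower ones. Spag8 stood at 11.1, 8.42 and 11.0 CPM against 6.68, 5.81 and 7.60 CPM, and Tex26 at 4.63, 4.54 and 4.12 CPM against 2.70, 2.61 and 2.45 CPM. The motile cilium list as a whole gave no common direction, with 11 of 20 genes above 0 and a median of 0.01. The leading lower genes also held Ttc16, Lrtm2, Rangrf, Trpm3, Gal, Aspg, Itgb2l and Cd200r4. Of these the neuropeptide galanin, Gal, stood at 1.27, 1.73 and 2.102 CPM against 0.83, 0.59 and 0.42 CPM, and Itgb2l, an integrin subunit of neutrophils, at 3.36, 3.80 and 1.86 CPM against 1.58, 0.76 and 0.59 CPM.

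Imprinted growth genes, expressed from 1 parental allele, are known to decline after birth. Peg3 stood at 12.99, 15.7 and 17.0 CPM against 11.6, 10.5 and 6.50 CPM (-0.67 ± 0.24), and the long non-coding RNAs Rian and Meg3, of 1 imprinted cluster, at 5.75, 7.43 and 6.87 CPM against 4.81, 3.62 and 2.45 CPM and at 8.21, 9.58 and 9.86 CPM against 4.06, 6.74 and 1.69 CPM. None of the 3 overlapped and all were lowest in 12M_208, without which their unadjusted p-values were 0.0629, 0.057 and 0.101. The protein-coding Nnat did not overlap in the other direction, at 19.2, 22.1 and 17.6 CPM against 26.1, 25.6 and 37.1 CPM, and the list median over 13 genes was -0.05.

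Cell-cycle inhibitors of senescence were measured near the limit or with wide spread. Cdkn2a, the p16 and p19 locus, stood at 0.22, 0.83 and 0.40 CPM against 1.88, 0.93 and 2.03 CPM. The groups did not overlap, but these are 3 to 25 counts per library, and the log2 fold change was 1.73 ± 0.55 (unadjusted p 0.00656, adjusted p 0.988). Its mean at 20M and 30M was 0.79 and 1.15 CPM, both under the 12M mean of 1.61. Cdkn1a, which encodes p21, stood at 64.5, 134 and 184 CPM against 91.9, 271 and 445 CPM, a spread within each age of 2.85-fold and 4.84-fold. Of 18 senescence and p53 target genes 3 had an unadjusted p under 0.05, all higher: Cdkn2a, Igfbp3 and Lmnb1. All 3 were under it without 12M_208 too. Lmnb1 overlapped, at a log2 fold change of 0.51 ± 0.21. Igfbp3 did not overlap, but its mean was 81.35 CPM at 6M, 117.6 at 12M, 71.99 at 20M and 61.42 at 30M. Whether a higher level of each of these genes goes with senescence was not tested.

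Glucocorticoid-responsive genes showed how much 2 libraries of 1 age can differ. Fkbp5, a co-chaperone that the glucocorticoid receptor induces, stood at 10.6, 39.5 and 127 CPM at 6M and 11.8, 60.3 and 160 CPM at 12M, a 12-fold spread within 6M and 13.5-fold within 12M. Zbtb16, a transcription factor induced by the same receptor, spread 19.6-fold and 14.8-fold, and its log2 fold change was -0.06 ± 1.27. In both genes 6M_201 and 12M_206 were the low libraries of their ages. Other members spread less within an age. Tsc22d3 (GILZ) stood at 246, 330 and 451 CPM against 360, 677 and 700 CPM and Ddit4, an inhibitor of mTORC1, at 31.0, 31.8 and 36.9 CPM against 50.8, 75.9 and 102 CPM, the latter without overlap. Over the 20 genes the median was 0.44, with 3 at an unadjusted p under 0.05, all higher. It was 0.21 without 12M_208, with 1 of the 3 genes still under 0.05, and 0.76 without 12M_206.

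**Figure D4:**
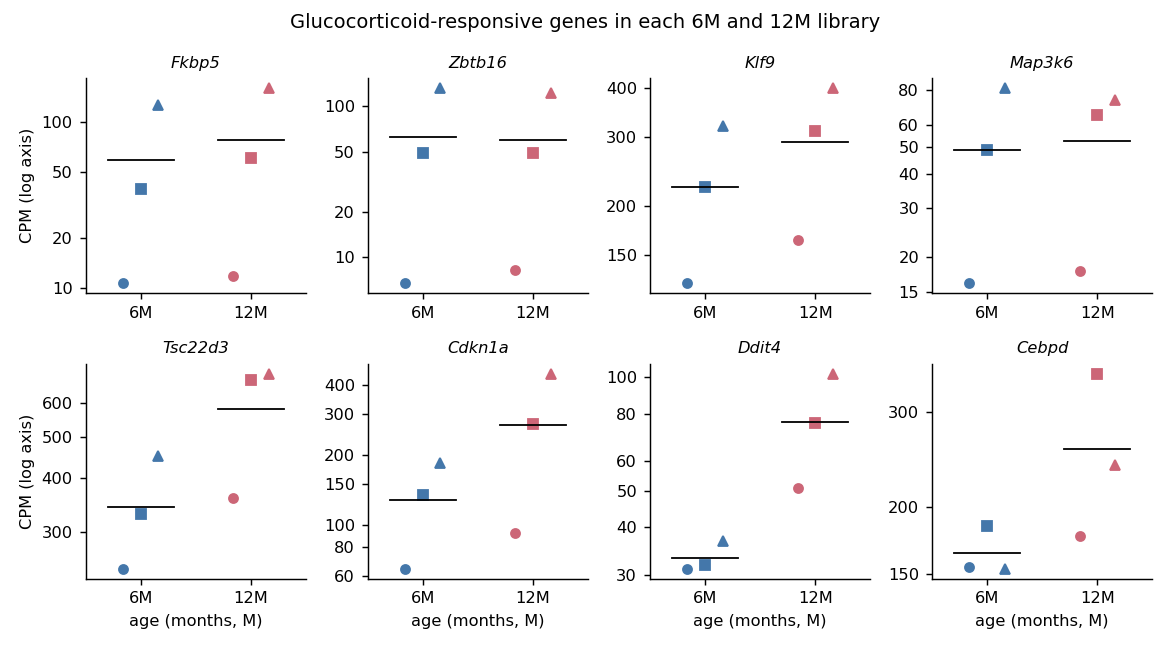
Level of 8 glucocorticoid-responsive genes in CPM (log axes) in the libraries of 6M and 12M, with bars at the mean of 3 libraries and circle, square and triangle in the order of the library numbers. Fkbp5 spans 10.6 to 127 CPM at 6M and 11.8 to 160 CPM at 12M, and the circles, 6M_201 and 12M_206, are low in both.

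Blood cell genes differed widely between libraries of 1 age. Hba-a1, an alpha-globin, stood at 278, 127 and 229 CPM against 132, 306 and 610 CPM, and the haemoglobin and erythroid list had a median of 0.47 that was -0.08 without 12M_208. The neutrophil list had a median of -0.30, the lowest of 63 lists. Of its 13 genes 1, Ly6g, had an unadjusted p under 0.05 (0.0335, and 0.0969 without 12M_208). Ly6g stood at 0.07, 2.23 and 0.57 CPM against 0.15, 0.17 and 0 CPM. Camp alone did not overlap, at 0.52, 2.06 and 2.99 CPM against 0.38, 0.51 and 0.34 CPM. Ngp and Il1r2 overlapped, at log2 fold changes of -1.14 and 0.69. S100a8, an abundant neutrophil transcript, stood at 52.0, 268 and 41.4 CPM against 27.4, 215 and 50.8 CPM, so that 6M_202 and 12M_207 were the high libraries, and without 6M_202 the list median was 0.58. The platelet list had a median of 0.28, which was -0.11 without 12M_208, and Ppbp, a platelet chemokine, stood at 13.9, 16.4 and 17.5 CPM against 15.1, 12.8 and 28.0 CPM. Mast cell genes stood low: Cma1, a chymase, was at 0.97, 0.91 and 1.29 CPM against 1.43, 2.95 and 3.63 CPM, and the median of the 13 eosinophil, basophil and mast cell genes ranged from 0.29 to 0.99 over the alternatives. Of the 13 genes, 3 had an unadjusted p under 0.05, all higher, and 0 had one without 12M_208. The 15 pan-endothelial genes had a median of 0.26, which was 0.04 without 12M_208.

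**Figure D5:**
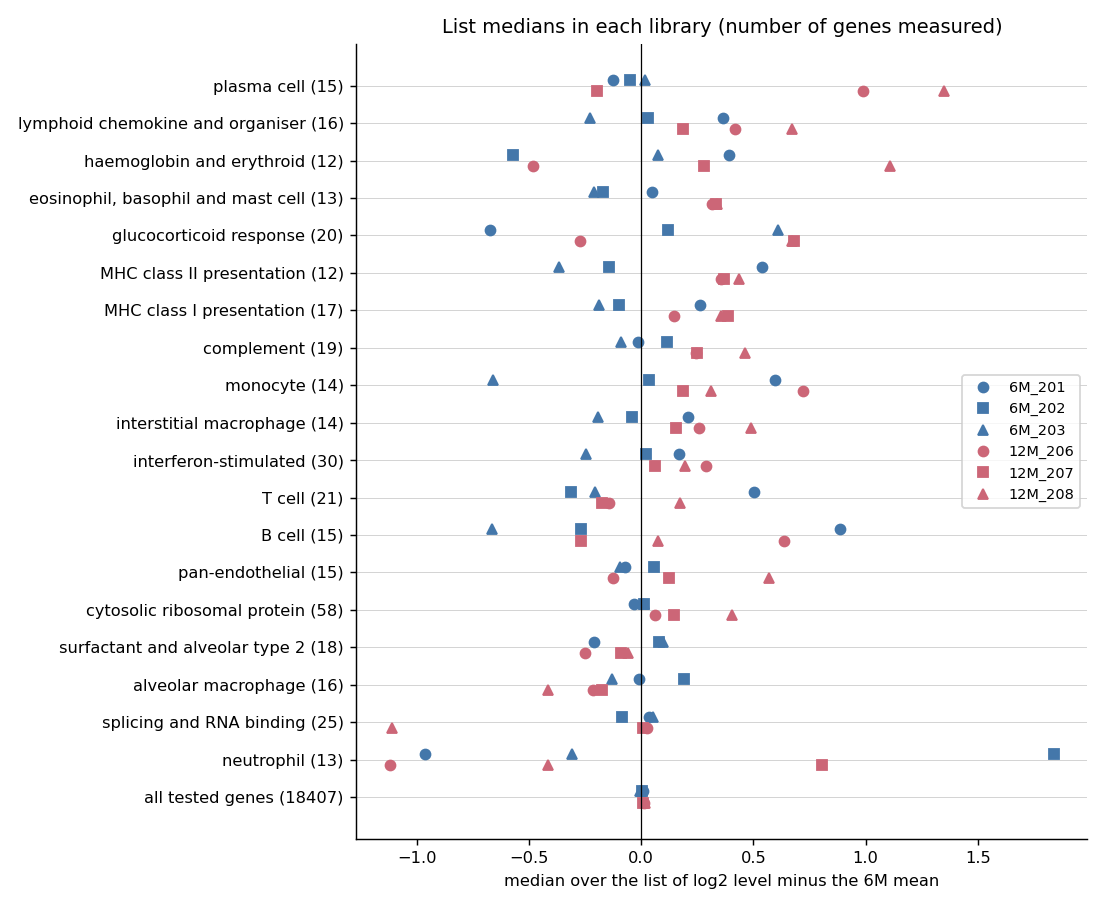
Median over each list of the log2 level minus a 6M mean (across), for 19 lists and all tested genes. For the 12M libraries (red) this is the mean of all 6M libraries. For a 6M library (blue) it is the mean of the other 6M libraries, which widens the spread of the blue points. The plasma cell list stands at 0.99, -0.20 and 1.35 in 12M_206, 12M_207 and 12M_208, the splicing list at -1.11 in 12M_208 alone, and the neutrophil list is high in 6M_202 and 12M_207.

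Of the 63 lists, 10 had a median above 0.3, 1 below -0.3 and 52 between, and none held a called gene. The lists of the gas-exchange and structural tissue were among those near 0 with narrow intervals. The 18 surfactant and alveolar type 2 genes had a median of -0.15, and 17 had an interval within 2-fold. Of these genes 2 were above 0 (11.1%, against 52.9% of all tested genes). On the list 3 did not overlap, all lower at 12M, where 5.81% of all tested genes did so. Their 1 member with an unadjusted p under 0.05 was Lyz1, a lysozyme with a close copy in Lyz2, at 435, 671 and 668 CPM against 408, 399 and 373 CPM (-0.59 ± 0.25), whose unadjusted p was 0.0348 and 0.0835 without 12M_208. Alveolar type 1 and caveola genes had a median of -0.01 (14 of 16 within 2-fold), collagens -0.02 (17 of 22), lung identity transcription factors -0.03 (20 of 22) and TGF-beta and BMP genes 0.08 (23 of 25). For nuclear genes of oxidative phosphorylation the median was 0.13 (0.07 without 12M_208) and all 40 intervals lay within 2-fold. Of the 40, 36 were above 0 (90%), 10 lay without overlap and higher, and 0 had an unadjusted p under 0.05. Of 58 cytosolic ribosomal protein genes, 56 were above 0 (96.6%), 27 lay without overlap and higher and 1 lower. Their median was 0.225 (0.10 without 12M_208). Over all tested genes 52.9% were above 0 and 6.3% lay without overlap and higher. Cytotoxic and exhausted lymphocyte genes had a median of 0.22 with 3 of 18 within 2-fold. Of the 18, Tigit, Pdcd1 and Cxcr6 had an unadjusted p under 0.05, all higher, and Tigit alone without 12M_208. T cell genes had a median of -0.09 with 16 of 21 within 2-fold and 0 at an unadjusted p under 0.05. By contrast 1 of 13 neutrophil and 3 of 13 eosinophil and mast cell genes had an interval within 2-fold. The counts were 2 of 15 for B cell and 4 of 15 for plasma cell genes. For most genes of these lists a difference of 2-fold or more could therefore not be excluded.

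The step from 6M to 12M was set beside the later ones, of which that from 12M to 20M shares the 12M libraries. At 30M against 20M 39 genes were called higher (0.212%). The number called at 20M against 12M is not reported here. An absence of calls is therefore not shown to be particular to the first step. The difference between the first step and the next passed an adjusted p of 0.05 in 0 genes, with 1146 at an unadjusted p under 0.05 (6.23%), and that between the first and the last step also in 0, with 832 (4.52%). DESeq2 called 1 and 11 genes in these tests. Arrdc3, whose log2 fold change was 0.70 for the first step and -0.78 for the next, had an unadjusted p of 6.33e-05 and an adjusted p of 0.73 for the difference. At 30M against 12M, which shares the 12M libraries, 121 genes were called higher (0.657%) and 10 lower (0.0543%), among them C1qc, Ppbp, Smpdl3b and Tnfrsf1b higher and Edil3 and Arrdc3 lower. For the first step Edil3, an integrin ligand of the matrix, stood at 20.2, 23.9 and 18.0 CPM against 13.7, 17.4 and 22.7 CPM. Fibin, a secreted fin bud initiation factor homologue, stood at 60.9, 71.8 and 76.2 CPM against 57.2, 45.6 and 88.6 CPM, and Cd5l, a macrophage-secreted scavenger protein, at 0.37, 0.74 and 0.32 CPM against 6.76, 2.02 and 0.42 CPM, all 3 with overlap.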

How the data were processed

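Per the labels' protocols, RNA was extracted with ISOGEN II, poly-A selected and read in pairs on an Illumina platform. The table the authors deposited holds raw, whole-number counts of each gene. The submitters' processing notes name HISAT2 2.1.0, featureCounts, Trimmomatic 0.38 and FastQC 0.11.7, with GRCm38 (mm10) as the build. Neither the annotation release nor the strand setting is given in the sources used here; overlapping and antisense genes are therefore uncertain.

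In R 4.3.3, edgeR 4.0.16 (TMM, filterByExpr by age, robust quasi-likelihood fit) was fitted to all 12 libraries, which share 1 estimate of the spread, and p-values were adjusted over 18407 of 55487 genes by Benjamini-Hochberg. A gene is called under 0.05. Standard errors and 95% intervals come from that fit. The script was tested on simulated data. Alternatives were DESeq2 1.42.0, limma 3.58.1 voom, other scalings and filters, GC trends removed, only the 6 libraries of the 2 ages, and each library left out. 1 setting, the 6 libraries without 12M_208, was added after seeing the data. Per-library list values are log2 of CPM plus 0.5, less the 6M mean, which for a 6M library leaves out that library.

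Members, the 63 gene lists and alternatives were chosen with earlier results of these data known. Named are the 15 genes per direction with the smallest p among genes whose libraries do not overlap and whose higher age has 1 CPM or more, up to 4 members of each list with a median beyond 0.3, in both cases leaving out predicted genes and antigen receptor segments, and Cdkn2a, Cdkn1a, C1qc, Cd5l, Psmb8, Igkc, Ppbp, Edil3, Peg3, Lyz1 and Fibin. Other genes were chosen after their values were seen. Promoters are from RefSeq.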

Additional observations from a re-analysis of the deposited data

How the results depend on the processing

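Genes called higher at 12M numbered 0 under edgeR, 9 under DESeq2 and 0 to 1 with a library left out: without 6M_201 C130026I21Rik passed, and without 12M_207 Igkv6-20. Genes called lower numbered 0 in each fit. With a library left out, genes at an unadjusted p under 0.05 ranged from 176 to 605 higher and from 124 to 815 lower, the lowest of both without 12M_208 and the highest without 12M_206. With limma voom they were 603 and 507, and 462 were lower with no count filter. For the differences between steps DESeq2 called 1 and 11 genes, and leaving out a library 0 to 1 for the first against the last step. The plasma cell median was 0.361 with limma voom. The eosinophil, basophil and mast cell median was 0.993 with limma voom, 0.285 with only the libraries of 6M and 12M, and 0.326 to 0.946 with a library left out. The platelet median ranged from -0.113 (without 12M_208) to 0.445, and was -0.118 in the 6 libraries without 12M_208. Among 77 genes followed singly, 5 values of 3 genes changed sign. Ppbp was -0.134 with limma voom and -0.197 in the 6 libraries without 12M_208. With a library left out Ppbp ranged from -0.196 (without 12M_208) to 0.433, Il1r2 from -0.758 (without 12M_207) to 1.86 and Fibin from -0.441 to 0.0675 (without 12M_207). The causes were not tested. The leading 15 genes per direction kept their direction in every fit that tested them. They had been chosen for libraries that do not overlap, so leaving out a library could hardly change their direction. In the fit to the 6 libraries alone 13278 of 17400 genes had an interval within 2-fold. No paired analysis was possible because the ages have no replicate number in common.

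A p that misses the threshold does not show that a gene is equal at both ages.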
